A study of Mus musculus with 4 samples.

Results

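The neighbouring genes Nr5a1 (ENSMUSG00000026751) and Nr6a1 (ENSMUSG00000063972) lie on mouse chromosome 2 and are both transcribed from the reverse strand. Per RefSeq on assembly GRCm38.p6, Nr5a1 spans chr2:38692656-38714542 (21887 bp) and Nr6a1 spans chr2:38723369-38926461 (203093 bp). ATAC-seq measures open chromatin, since a transposase inserts sequencing adapters where DNA is accessible, and a peak is an interval where such inserts pile up. Peaks were taken as belonging to these genes when the authors' annotation gave the gene as the nearest or named its identifier at the peak. This rule took 91 of the 417506 peaks in all libraries. Peaks overlapping by at least 1 bp in different libraries were merged into regions, which gave 52 of 255101 regions, 3 for Nr5a1 and 49 for Nr6a1.

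The cells were LβT2b, named so in the protocol, LbT2b in the titles and LbT2 as the cell line. LβT2 is an established mouse line used as a model of the gonadotrope, the pituitary cell type that secretes gonadotropins. Wells were seeded with 350000 cells, held without serum overnight and then given vehicle or 1 nM activin A for 6 h, with 50000 cells per transposase reaction. There were 2 vehicle and 2 activin libraries, of 275983526 to 375610146 reads and 172146474 to 224226184 high-quality autosomal reads. The labels do not say whether libraries came from separate cultures, so each p-value measures only the spread between these libraries, which may be technical. All groups are of 1 cell line in culture, without the other cells of a pituitary. The lists held 83344, 178358, 85112 and 70692 peaks in vehicle libraries 1 and 2 and activin libraries 1 and 2, the order used for every set of 4 values here. Read enrichment at transcription start sites was 2.72, 2.48, 3.12 and 3.04, higher in both activin libraries, and its part in the results below was not tested. Of 9 gonadotrope marker genes, 8 had a promoter peak in all libraries, Nr5a1 itself among them, and Fshb had none. Of all RefSeq protein-coding genes 30.9% had one in all libraries. Of 9 markers of other pituitary lineages and of stem cells only Sox9 had such a peak in all 4. Of 6 markers of other cells none did, though Col1a1 had one in 3 libraries.

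Nr5a1 encodes steroidogenic factor 1 (SF-1), an orphan nuclear receptor that binds DNA as a monomer and is needed for adrenal and gonadal development and for full gonadotropin expression by the gonadotrope. Its expression in different tissues is known to depend on enhancers within its introns, among them a pituitary gonadotrope enhancer in intron 6. Nr6a1 encodes germ cell nuclear factor (GCNF), an orphan receptor that represses pluripotency genes in the embryo and binds direct repeats of the hexamer AGGTCA. An antisense transcript (Nr6a1os) and the microRNA genes Mir181a-2 and Mir181b-2 lie within Nr6a1.

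Nr6a1 has a pair of annotated promoters in RefSeq, and they were open to different degrees, so the 250 bases before each start are printed here 5′ to 3′ in the direction of the gene (RefSeq, GRCm38.p6, minus strand). The upstream window overlapped a peak in 4 libraries and the internal window in 1. Capitals mark the nuclear receptor hexamer AGGTCA, which on this strand reads TGACCT.
Nr6a1 upstream promoter, chr2:38926462-38926711: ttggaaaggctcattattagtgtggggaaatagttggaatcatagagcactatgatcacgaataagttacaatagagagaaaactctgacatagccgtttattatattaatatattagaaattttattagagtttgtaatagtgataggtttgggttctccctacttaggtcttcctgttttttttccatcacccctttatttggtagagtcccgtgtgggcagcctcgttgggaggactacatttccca
Nr6a1 internal promoter, chr2:38784516-38784765: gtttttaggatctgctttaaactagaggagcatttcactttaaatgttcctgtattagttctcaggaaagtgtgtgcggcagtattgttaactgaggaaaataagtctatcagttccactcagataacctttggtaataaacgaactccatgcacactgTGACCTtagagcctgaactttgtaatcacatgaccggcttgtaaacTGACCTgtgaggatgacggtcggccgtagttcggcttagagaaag
The hexamer stood at 91 to 86 and at 45 to 40 bases before the internal start and was absent from the upstream window. On either strand, AGGTCA was found in 14.0% of 32851 RefSeq promoter windows. Also searched for on both strands were the E box (CACGTG), the CCAAT box, the GC box (GGGCGG), the PITX site (TAATCC) and the TATA box (TATAAA). So were the extended SF-1 site (CAAGGTCA, which contains the hexamer) and the palindromic SMAD element (GTCTAGAC), and none of all these was in either window. Of all windows, between 0.167% (the SMAD element) and 33.8% (the CCAAT box) held each of these. Both windows were poor in G and C, at 37.6% upstream and 42% internally against a median of 52.4% over all windows. Upstream there were 4 CpG dinucleotides and internally 7. Relative to the number expected from their C and G content this was 0.463 and 0.642. Those ratios stood at the 57.0 and 69.0 percentile of all windows. Nr5a1 is not in this sequence table.

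Most peaks taken for these genes were intronic or at a promoter. The 12 Nr5a1 peaks were annotated as intron (6), promoter (4) and exon (2). The 79 Nr6a1 peaks were annotated as intron (72), promoter (5) and gene end (2), and no peak of either gene was intergenic. The rule for members favours this, since an intergenic peak could enter only where the gene was the nearest. Of all peaks in each library, 13.0%, 7.51%, 12.9% and 14.7% were annotated as promoter. The shares of the other classes were not counted. Nr5a1 had 3 peaks in each library, whereas Nr6a1 had 18, 25, 24 and 12. Both genes together had 21, 28, 27 and 15 peaks, which is 24.5 ± 4.95 for vehicle and 21 ± 8.49 for activin (SD, n = 2). The difference of -3.5 peaks was within the spread of the libraries (exact permutation test, 2-sided, p = 0.667, where 2 against 2 cannot go below 0.33). Its sign turned when only the 70692 strongest peaks of each list were used, which gave 15, 11, 23 and 15 peaks, and without activin library 2.

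**Figure D1:**
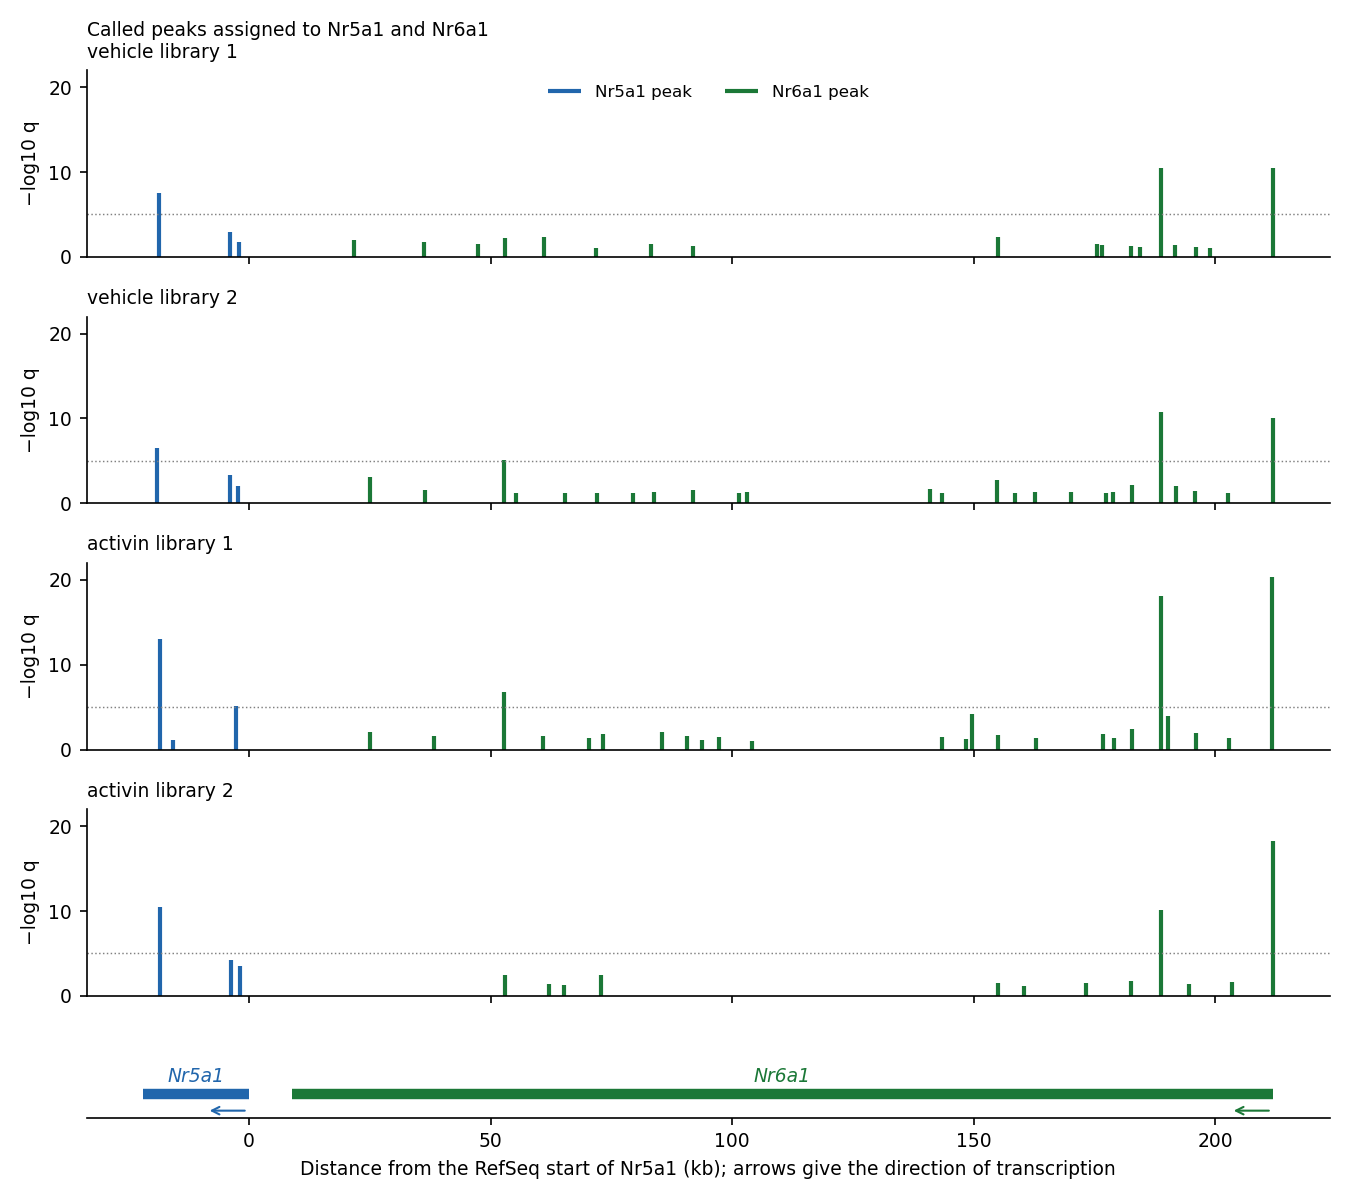
Each bar is 1 called peak of Nr5a1 (blue) or Nr6a1 (green) in 1 library, placed by its distance in kb from the RefSeq start of Nr5a1, with the −log10 q of the peak as height and a dotted line at 5. The tall bars recur at the same places in all 4 libraries (Nr5a1 intron 6, Nr6a1 intron 1, Nr6a1 promoter), while most bars across Nr6a1 are short and differ between libraries.

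Most regions of the 2 genes were weak and had a peak in 1 library only, at shares near those of the whole genome. A peak was present in all 4 libraries at 7 of the 52 regions (13.5%), where 11.7% of all merged regions had one. At 31 regions (59.6%) the peak was in 1 library only, against 67.4% of all regions. Strength is given by the −log10 of the q-value that the authors' peak caller assigned, where 1 was about the lowest value listed. Of the 7 recurrent regions, 2 were weak in every library (highest −log10 q 2.76 and 2.43). The 45 regions lacking a peak in some library had a median highest −log10 q of 1.42 (range 1.01 to 4.21), and 8 of them reached 2. A −log10 q of 5 or more in any library was reached by 5 member regions (8.32% of all regions did so), and in all 4 libraries by 3 (4.07% of all regions). Those 3 were the intron 6 region of Nr5a1, an intron 1 region of Nr6a1 and the upstream promoter region of Nr6a1.

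The intron 6 region was the strongest of Nr5a1. It spanned chr2:38695109-38696733, 18.6 kb downstream of the RefSeq start, in the last intron of the annotated transcript. Its −log10 q was 7.51, 6.54, 13.1 and 10.5. Among the intronic peaks of each library these values stood at the 95.8, 97.4, 95.3 and 95.1 percentile. The authors' fold enrichment was 2.45, 2.22, 2.61 and 2.70. Its 613, 811, 1371 and 924 high-quality reads lay in called intervals of 818, 987, 1321 and 1206 bp. Both activin libraries thus had longer intervals and more reads, before any scaling for depth. The share of all regions with the same order was not counted. Read density, in high-quality reads per kb of peak per 1000000 high-quality autosomal reads of the library, was 4.35, 3.72, 4.63 and 4.31. The mean was 4.03 ± 0.451 for vehicle and 4.47 ± 0.228 for activin (SD, n = 2), and the libraries of the treatments overlapped.

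The test compared log2 densities after centring each library on its own median region. Regions with exactly 1 peak per library and a common part of at least 50% of the union entered the first fit, 13871 in all. The common part of the intron 6 intervals was 37.4%, so its test came from a wider fit over 28977 autosomal regions with a peak in all 4 libraries. Neither limma fit called a region at an adjusted p under 0.05 (0% of regions). Without adjustment, p was under 0.05 for 1322 shared regions (9.53%) and 2724 regions of the wider fit (9.4%). The change with activin at intron 6 was -0.02 ± 0.11 (log2, SE; limma, adjusted p = 0.970). Without division by interval length it was 0.31 (adjusted p = 0.490), and scaled to all high-quality reads 0.15. In a bulk library, more cells with the region open and wider opening in each cell cannot be told apart.

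At the start of Nr5a1 the signal was broad, with a low fold enrichment and a high read density. The region chr2:38710412-38713765 covered the start site that the authors' annotation uses for Nr5a1 (38711188) and that of the antisense transcript Nr5a1os (38712676), but ended short of the RefSeq start of Nr5a1 (38714542). Activin library 1 had 1 peak of 3041 bp there, and each other library had 2, a short one of 388 to 602 bp in the first exon or intron and a longer one of 1107 to 1943 bp over the annotated starts. The peak of activin library 1 was annotated to the promoter of Nr5a1os and those of the other libraries to that of Nr5a1. Reads from these promoters cannot be told apart here.

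The strongest peak of that region had a −log10 q of 2.97, 3.33, 5.15 and 4.23. Except in activin library 1, this was the short peak in the first exon or intron. The peaks annotated as promoter had 1.79, 2.02, 5.15 and 3.55, at the 16.5, 34.4, 27.3 and 21.7 percentile of promoter peaks. Fold enrichment of the strongest peak was low, at 1.99, 1.94, 2.05 and 2.15, the 4.18, 9.18, 10.2 and 7.93 percentile of all peaks of the library. Summed over its peaks, density was 3.41, 2.81, 3.08 and 2.86, with means of 3.11 ± 0.422 for vehicle and 2.97 ± 0.154 for activin (SD, n = 2). These densities stood at the 92.0, 94.0, 87.4 and 83.7 percentile of all peaks. The treatments overlapped on this scale. After centring, both activin libraries lay below both vehicle libraries, as at 18.5% of the regions in the wider fit. The change was -0.23 ± 0.13 (limma, adjusted p = 0.573), and without division by length it was 0.22, in the opposite direction. The third Nr5a1 region, chr2:38698840-38698995 in intron 6, had a peak in activin library 1 only (−log10 q 1.10).

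**Figure D2:**
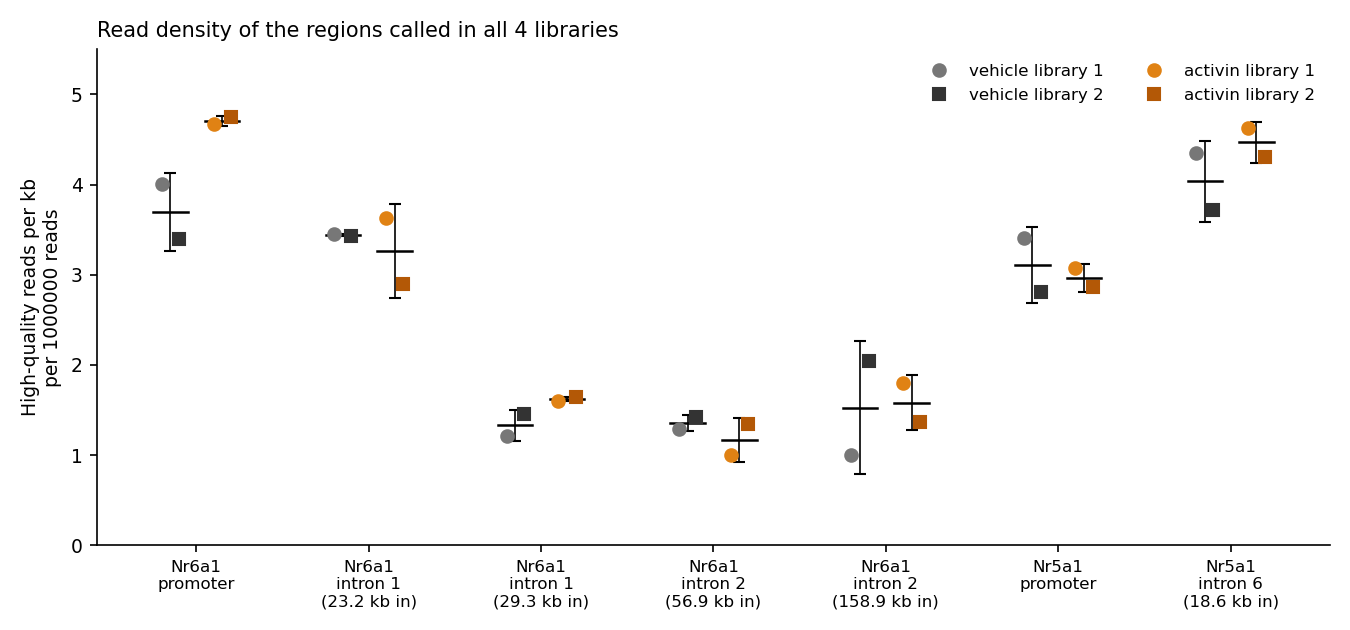
The vertical axis gives high-quality reads per kb of peak per 1000000 for the 7 regions with a peak in all 4 libraries, ordered from the Nr6a1 promoter to Nr5a1 intron 6. Points are libraries and bars show mean ± SD (n = 2). At the Nr6a1 promoter both activin libraries (4.67 and 4.75) lie above both vehicle libraries (4.00 and 3.39), and at Nr5a1 intron 6 they overlap.

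The upstream promoter of Nr6a1 had the highest −log10 q of its regions in 3 libraries, all but vehicle library 2. It spanned chr2:38925315-38927500 across the RefSeq start, and its peaks were nearest to the annotated start of another gene, Olfml2a, while their annotation named the Nr6a1 promoter. Its −log10 q was 10.5, 9.99, 20.4 and 18.2, at the 60.7, 70.6, 66.6 and 70.5 percentile of promoter peaks. Fold enrichment was 3.09, 2.87, 3.44 and 3.67. The 1253, 1491, 2123 and 1547 reads gave densities of 4.00, 3.39, 4.67 and 4.75. Mean density was 3.70 ± 0.432 for vehicle and 4.71 ± 0.0560 for activin (SD, n = 2), without overlap. Scaled in this way, to all high-quality reads, both activin libraries were above both vehicle libraries at 62.2% of the shared regions, and the median shared region was 0.27 higher (log2) with activin. Relative to the median region the change at the Nr6a1 promoter was 0.08 ± 0.10 (limma, adjusted p = 0.812), and the treatments overlapped. It was 0.19 in the wider fit, 0.35 when scaled to all high-quality reads (adjusted p = 0.114, where 4.36% of regions were called) and -0.05, in the opposite direction, without division by length.

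The same order of −log10 q between the treatments was common over the genome. Both activin libraries exceeded both vehicle libraries in −log10 q at 56.8% of the 29896 regions with a peak in all 4 libraries and fell below them at 5.44%. Among the 7 member regions 3 were above, both Nr5a1 regions and the upstream Nr6a1 promoter, and 1 was below.

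The internal start of Nr6a1 had little signal. The authors' annotation places a start at 38784515, and the only promoter peak there, chr2:38784738-38784926, was called in activin library 1 with a −log10 q of 1.41. In that library the upstream promoter peak stood at 20.4.

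A narrow region in intron 1 of Nr6a1, chr2:38903004-38903531 and 23.2 kb into the gene, was as strong as the promoter in the vehicle libraries. Its −log10 q was 10.4, 10.8, 18.1 and 10.1, and its fold enrichment of 3.94, 3.75, 4.39 and 3.81 was above that of the promoter in every library. It held 211, 281, 402 and 267 reads in intervals of 355, 370, 494 and 518 bp. Density was 3.45, 3.43, 3.63 and 2.90, with means of 3.44 ± 0.0130 for vehicle and 3.26 ± 0.518 for activin (SD, n = 2), so activin library 1 was the highest and activin library 2 the lowest. After centring, both activin libraries were below both vehicle libraries, as at 20.5% of the shared regions. The change was -0.36 ± 0.12 (limma, unadjusted p = 0.015, adjusted p = 0.435), so that 1 of the 2 member regions among the shared regions had an unadjusted p under 0.05 (9.53% of shared regions, and 5.91% with a lower value in activin). Without division by interval length it was -0.03, and scaled to all high-quality reads -0.09.

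**Figure D3:**
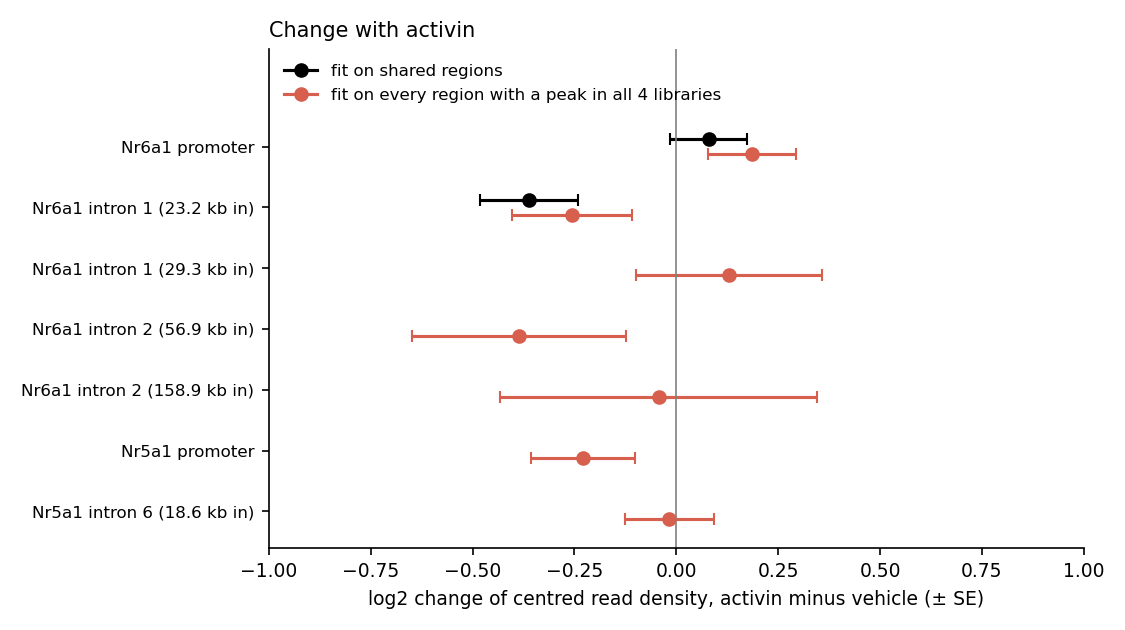
Points give the log2 change of centred read density, activin minus vehicle, with SE, for the 7 regions with a peak in all 4 libraries, in black from the fit on shared regions and in red from the fit on every region with a peak in all 4. The intron 1 region 23.2 kb into Nr6a1 lies at -0.36 and the Nr6a1 promoter at 0.08 in black, and no point passed an adjusted p of 0.05.

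The other Nr6a1 regions found in all 4 libraries were weaker. In intron 2, chr2:38767204-38767934 had a −log10 q of 2.28, 5.10, 6.79 and 2.51 and a density of 1.01, 2.05, 1.80 and 1.36. Vehicle library 1 was the lowest and vehicle library 2 the highest, and the change was -0.04 ± 0.39 (limma, adjusted p = 0.977). Without vehicle library 2 it was 0.56.

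Also in intron 2, chr2:38869202-38869833 had a −log10 q of 2.30, 2.76, 1.70 and 1.51, lower in both activin libraries. Its density was 1.29, 1.42, 1.00 and 1.34 and its change -0.39 ± 0.26 (adjusted p = 0.639). It was -0.94 without division by length, -0.15 without activin library 1, -0.23 without vehicle library 2 and -0.62 without activin library 2. In intron 1, chr2:38896791-38897463 had a −log10 q of 1.24, 2.15, 2.43 and 1.81, a density of 1.21, 1.45, 1.60 and 1.64 and a change of 0.13 ± 0.23 (limma, adjusted p = 0.872). All of these changes came from the wider fit, since their intervals shared too little length for the first fit. Without division by length the change at 38896791 was -0.89, in the opposite direction.

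Within Nr6a1, 2 further recurrent regions are annotated to an intron of the antisense Nr6a1os, and so fall outside the rule for members. The stronger, chr2:38827773-38828158, had a −log10 q of 4.24, 3.84, 9.37 and 5.24 and a density of 1.83, 1.89, 2.31 and 1.92. Its change was -0.09 ± 0.15 (limma, first fit, adjusted p = 0.868), and it was 0.18 when scaled to all high-quality reads. The other, chr2:38829581-38830036, had a −log10 q of 1.65, 3.89, 6.48 and 2.32 and changed by -0.27 ± 0.20 (wider fit, adjusted p = 0.674), or by -0.12 without vehicle library 2 and -0.41 without vehicle library 1. No strand is known in ATAC-seq, so signal of the gene and of its antisense transcript cannot be told apart.

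Of the regions found in fewer libraries, 13 had a peak in 2 and 1 had a peak in 3. Over the whole genome 37408 of the 255101 regions had a peak in 2 libraries and 15980 in 3. Both activin libraries and no vehicle library had a peak at 1 region, chr2:38787303-38788120 in intron 2 (highest −log10 q 2.51). Both vehicle libraries and no activin library had one at 4 regions, and combinations of 1 vehicle with 1 activin library accounted for 0 to 5 regions each. The shares of all regions with these combinations were not counted. Vehicle library 2 had by far the longest peak list, so no difference between the treatments is read from these counts. Peaks in a single library numbered 6, 9, 11 and 5. The strongest of these were in activin library 1, at chr2:38864064-38864317 (−log10 q 4.21) and chr2:38904458-38905065 (3.96). At a gene end in the authors' annotation, chr2:38739538-38739842 had a peak in vehicle library 2 (3.14) and activin library 1 (2.08). This place lies inside the RefSeq span of Nr6a1, whose 3′ end is at 38723369. The microRNA genes were not under a peak, the nearest to Mir181a-2 lying 6572, 2588, 4952 and 16522 bp away and to Mir181b-2 7667, 1480, 3844 and 15414 bp.

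Nr5a1 and Nr6a1 peaks differed in how read density related to the authors' fold enrichment. The fold is set against the peak caller's own background, whereas the density is not set against any. Density divided by fold had a median of 1.77, 1.67, 1.77 and 1.52 over the 3 Nr5a1 peaks of each library. For all Nr6a1 peaks it was 0.552, 0.572, 0.563 and 0.579, and for all peaks 0.583, 0.557, 0.576 and 0.576. Each of the 12 Nr5a1 peaks stood at or above the 93.4 percentile of its library. Only 1 of the 79 Nr6a1 peaks, at the gene end of the authors' annotation in vehicle library 2 (1.49), reached the lowest Nr5a1 value of its own library. The upstream Nr6a1 promoter came close in activin library 2, at 1.29 against a lowest Nr5a1 value of 1.31, and had 1.18 to 1.36 in the other libraries. This measure was chosen after its values were seen and is given without a test.

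**Figure D4:**
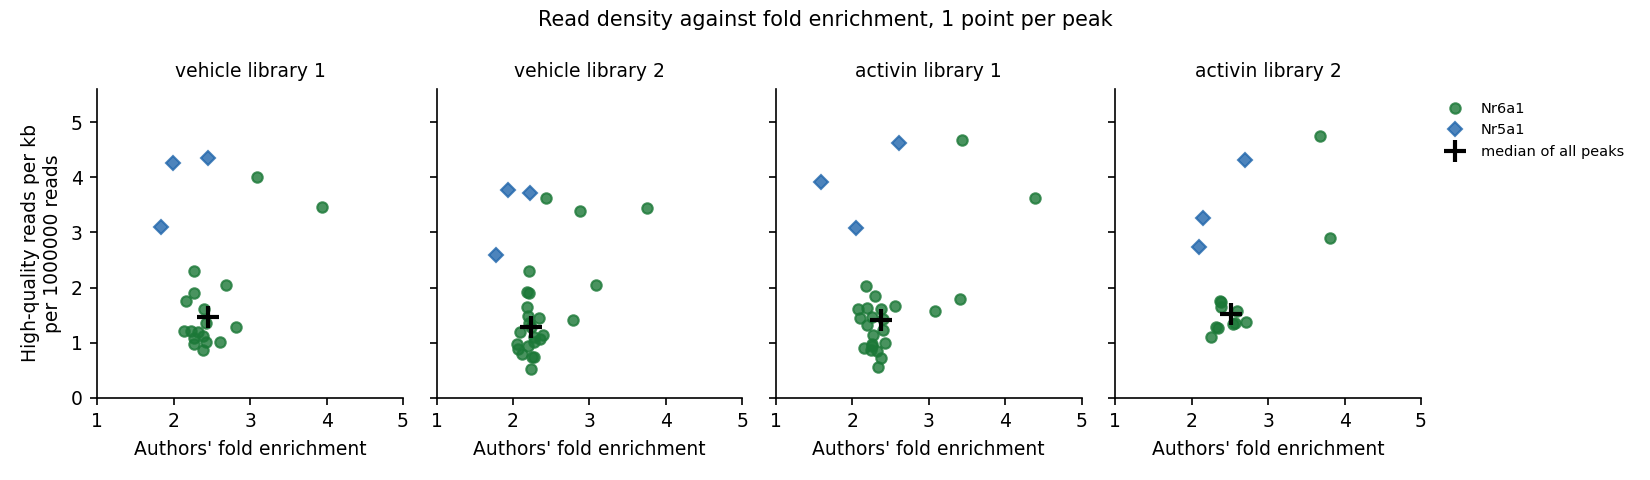
Each point is 1 peak, with the authors' fold enrichment on the horizontal axis and high-quality reads per kb per 1000000 on the vertical axis, in 1 panel per library. Nr5a1 peaks (diamonds) combine a fold near the median of all peaks (cross) or under it with densities well above it, while most Nr6a1 peaks (circles) lie near the cross.

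A list of 16 genes held genes that work with or downstream of Nr5a1 in the gonadotrope, and its relative Nr5a2. Of these, 12 had a promoter peak in all 4 libraries, as 30.9% of 21896 RefSeq protein-coding genes did. In 7 the −log10 q was at least 5 in each library (22.5% of the protein-coding genes), and Fshb and Nr0b1 had no promoter peak. The list was chosen by hand and this difference was not tested. Nr5a2, the closest relative of Nr5a1, had a weak promoter peak in 3 libraries (1.43 in vehicle library 2, 1.08 and 1.41 in the activin libraries). The first fit held 10 promoter regions of 8 of these genes. None was called, 1 had an unadjusted p under 0.05, near the 9.53% of all shared regions, and the median change was 0.09 (range -0.10 to 0.24) against -0.005 over all shared regions.

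The smallest p belonged to Cga, the gene of the common gonadotropin α subunit. Its promoter density was 3.09, 2.60, 4.15 and 3.94, higher in both activin libraries, and its change 0.24 ± 0.10 (limma, unadjusted p = 0.040, adjusted p = 0.509). Lhb, the gene of the luteinizing hormone β subunit and a direct target of SF-1, had 3.42, 3.33, 4.02 and 3.96 and a change of -0.03 ± 0.10 (adjusted p = 0.942).

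Within 200 kb of either gene RefSeq lists 21 others, of which 6 had a peak annotated to their promoter and 3 had it in all libraries. These were Nek6 (change -0.03 ± 0.13), the proteasome subunit gene Psmb7 (-0.38 ± 0.15, unadjusted p = 0.027, adjusted p = 0.486) and the ribosomal protein gene Rpl35 (0.05 ± 0.11), all by limma in the first fit. The promoter region of Golga1 also had a peak in all 4 libraries, but that of vehicle library 1 was not annotated to this promoter. In vehicle library 2 and activin libraries 1 and 2 its promoter peak had a −log10 q of 30.2, 61.7 and 48.8. Its change was 0.18 ± 0.10 (limma, first fit, adjusted p = 0.599). The promoters whose 4 centred log2 densities were closest to those of the upstream Nr6a1 promoter were Socs6, Dhrs13 and Cep19, with root mean square differences of 0.026, 0.032 and 0.032. They came from 6684 promoter regions, 213 of which lay within 0.1. Closest to the Nr5a1 promoter region were Cgn (0.058), Zfp3 (0.065) and Golph3l (0.065) of 6685, with 19 within 0.1. These likenesses rest on 4 libraries and are descriptions only.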

How the data were processed

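Per the submitters' processing notes, Bowtie2, MACS2 and HOMER were used with GRCm38 (mm10). Versions and settings are not given in the sources used here. The authors deposited, for each of 4 libraries, a list of broad peaks with a whole-number score, a fold enrichment (a ratio), and the −log10 of the p-value and of the q-value. They also deposited HOMER's annotation of each peak and, per the file headers, an ataqv 1.3.1 report with the high-quality autosomal reads overlapping each peak. Peaks were called on each library alone, so presence depends on its depth and background, and the score and fold are the authors' own values.

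From these, regions were merged at 1 bp of overlap. The log2 of (reads + 1) per kb of each library's own interval was centred on the library median and tested with limma 3.58.1 (trend, no block; Benjamini-Hochberg over all regions tested; R 4.3.3). Read numbers stand in a report over intervals that differ between libraries, so no count model was used. Named regions were those with a peak in all 4 libraries, those tested, and those with a −log10 q of at least 5 in any library. For the gonadotrope list they were the 2 smallest p in each direction, of which some are not reported here, and for likeness the 3 closest promoters. The members and lists were chosen with earlier results of these data known. Alternatives were another pseudocount, scaling to all high-quality reads, no length division, a read minimum, other overlap rules, a replicate block and leaving out each library.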

Additional observations from a re-analysis of the deposited data

How the results depend on the processing

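The 9 regions tested inside Nr5a1 and Nr6a1 were the 7 recurrent members and those at 38827773 and 38829581, annotated to Nr6a1os. None passed an adjusted p of 0.05 in any of 85 alternatives (lowest 0.114), of which 68 kept the sign of the change and 17 turned it. Over all shared regions the count called was 0, and it became 1 with a pseudocount of 10 reads, 605 when scaled to all high-quality reads (553 higher and 52 lower), 39 without division by length and 0 to 9 with 1 library left out (1 without activin library 1, 9 without activin library 2). With replicate numbers as a block it was 4; the deviations of same-numbered libraries had r = -0.025 over 13871 regions, and the labels do not say whether the numbers pair the libraries. The block turned no member's sign. Of the gonadotrope promoters, 1 was called when scaled to all high-quality reads. Scaling turned Nr5a1 intron 6 to 0.15, the intron 2 region at 38767204 to 0.12 and the antisense-annotated region at 38827773 to 0.18. That last region was 0.013 over every region with a peak in all 4 libraries. Without length division the change was 0.31 at Nr5a1 intron 6, 0.22 at the Nr5a1 promoter, 0.11 at 38767204, 0.041 at 38829581, -0.89 at 38896791 and -0.051 at the Nr6a1 promoter, which was -0.0081 at a common part of at least 80%. With 1 library left out the ranges were -0.056 to 0.021 at Nr5a1 intron 6 (0.010 without vehicle library 1, 0.021 without activin library 2), -0.28 to -0.18 at the Nr5a1 promoter, -0.64 to 0.56 at 38767204 (0.14 without activin library 2), -0.20 to 0.016 at 38827773 (the latter without vehicle library 2), -0.090 to 0.35 at 38896791 (the former without vehicle library 1), -0.62 to -0.15 at 38869202, -0.41 to -0.12 at 38829581 and -0.49 to -0.24 at 38903004. The difference in peak number was 0.5 at a −log10 q of at least 5, 6 at equal list length and -9.5 to 2.5 with 1 library left out (0 without vehicle library 2). Regions with a peak in all 4 numbered 3 of 5 at a −log10 q of at least 5 (48.9% over all regions) and 6 of 36 at equal list length (16.5%). With 1 library left out, regions with a peak in every remaining library were counted. They numbered 7 of 46 without vehicle library 1 (15.4% over all regions) and 7 of 43 without vehicle library 2 (20.2%). Without activin library 1 they were 8 of 42 (14.3%), and without activin library 2 they were 8 of 47 (14.9%). The cause of these shifts was not tested. Precision is limited by 2 libraries per group and by intervals called separately in each.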

Other observations

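The high ratio of read density to the authors' fold was not limited to peaks of Nr5a1 and ended inside Nr6a1. In stretches whose bounds were chosen after the values were seen, its median over all peaks in chr2:38650001-38750000, which holds Nr5a1 and the 3′ end of Nr6a1, was 1.53, 1.52, 1.50 and 1.50 in vehicle libraries 1 and 2 and activin libraries 1 and 2 (10, 12, 9 and 8 peaks). Across chr2:38750001-38900000, which lies within Nr6a1, it was 0.543, 0.567, 0.520 and 0.547 (17, 23, 20 and 10 peaks), and the highest single peak there, at 0.864, was below each of those medians. In chr2:38900001-39000000, which holds the upstream promoter of Nr6a1, it was 1.16, 1.11, 1.10 and 1.29. The region of Nr5a1os between the genes, chr2:38718637-38719585, had a peak in all 4 libraries with a −log10 q of 3.59, 2.17, 5.29 and 4.00 and a density of 3.65, 2.95, 3.38 and 2.99. On the other side of Nr5a1, in chr2:38600001-38650000, the median was 0.690, 0.859, 0.774 and 1.22 (4, 11, 7 and 3 peaks). Since the bounds were drawn from these values, the contrast between stretches is a description only.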
